A study of Mus musculus with 12 samples.

Results

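The genes described here are 10 members of the TNF and NF-kB system in heart cells labelled as macrophages. The 10 are the cytokine gene Tnf, the receptor genes Tnfrsf1a and Tnfrsf1b, the NF-kB subunit genes Nfkb1, Nfkb2, Rel and Relb, and the inhibitor genes Nfkbia, Nfkbiz and Tnfaip3. They were chosen by name, as the rows whose symbol is 1 of these 10, and each symbol has 1 row. They are 10 of 53801 genes in the count table, and all 10 passed the filter on low counts that left 14964 genes for testing. RNA was sequenced in bulk from cells labelled as macrophages, sorted from hearts of C57BL/6N mice after the left anterior descending coronary artery had been ligated (MI). The 4 groups of 3 libraries are Bhlhe41dTomato-Cre+/- CCR2low (written Cre+/- CCR2low), WT CCR2low, Bhlhe41dTomato-Cre+/- CCR2hi (Cre+/- CCR2hi) and WT CCR2hi. All mice are labelled male, and all groups had the infarct. The genotype of the Cre+/- samples stands in their titles only, since their other label fields look shifted (the word male stands under genotype and the strain under cell type). The table columns name these libraries KD, and they were matched to the Cre+/- titles by gate and number, KD being the only genotype name there beside WT, so that the genotype of every Cre+/- value rests on that match. The allele name reads as 1 copy of an insertion at Bhlhe41, a gene for a repressor of the basic helix-loop-helix class, that carries the red fluorescent protein dTomato and the recombinase Cre. No label gives the age of the mice, the days after ligation or the number of animals behind a library, so p-values measure the spread between these libraries, which may be technical.

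TNF is a cytokine that macrophages make early after tissue injury. Its receptor TNFR1, from Tnfrsf1a, is made by most cell types, and TNFR2, from Tnfrsf1b, mainly by immune and endothelial cells. Signalling from the receptors activates the IKK kinases, which mark the inhibitor IkBa for breakdown, so that NF-kB dimers reach the nucleus. NF-kB in turn switches on genes of its own inhibitors, which gives the pathway its negative feedback. In the infarcted heart, macrophages that carry the chemokine receptor CCR2 derive largely from blood monocytes, and CCR2-low macrophages include the resident population.

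Total counts ran from 17702018 to 20826688 per library. Bhlhe41 was at 23.9, 26 and 13.3 CPM (counts per 1e+06 counts) in Cre+/- CCR2low, against 41.2, 32.3 and 34.2 CPM in WT CCR2low. It was at 7.67, 9.44 and 6.8 CPM in Cre+/- CCR2hi, against 45.3, 39.7 and 27 CPM in WT CCR2hi. It was lower in Cre+/- in both gates, at a log2 fold change of −0.77 in CCR2low and −2.23 in CCR2hi (edgeR adjusted p = 0.0221 and 5.14e-05). Ccr2 RNA was lower in CCR2low than in CCR2hi in WT (log2 fold change −1.06 ± 0.301, SE, edgeR adjusted p = 0.00825), while in Cre+/- the difference was −0.01 ± 0.296 (adjusted p = 0.983). Xist, the RNA of the inactive X chromosome of female cells, had 1403 to 3699 counts in each Cre+/- library and 0 to 3 counts in each WT library. The summed counts of 4 Y-linked genes were 105 to 1446 in Cre+/- libraries and 668 to 1741 in WT libraries, and the Cre+/- libraries numbered 3 had the lowest, 105 in CCR2low and 182 in CCR2hi. Without both of these libraries, 48 of the 50 fold changes of the 10 genes kept their direction and call, while Nfkb2 between gates in Cre+/- was not called (0.46, adjusted p = 0.0692) and the interaction of Tnfaip3 turned positive (0.050). Genotype and sex of the cells cannot be told apart in these libraries.

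Markers of several cell types differed in level between the groups. All 15 macrophage identity markers were detected in every group, and their sum was 1.89 to 2.2% of counts in Cre+/- CCR2low, 2.41 to 2.48% in WT CCR2low, 0.521 to 0.698% in Cre+/- CCR2hi and 0.172 to 0.368% in WT CCR2hi. The 14 pan-leukocyte markers summed to 0.668 to 0.77%, 0.68 to 0.774%, 0.251 to 0.36% and 0.0854 to 0.163% in the same order of groups. The 10 fibroblast markers ran the other way, with 0.196 to 0.479% in Cre+/- CCR2low, 0.456 to 0.77% in WT CCR2low, 3.66 to 4.69% in Cre+/- CCR2hi and 6.96 to 7.88% in WT CCR2hi. In both CCR2hi groups the fibroblast sum was above the macrophage sum, although both are labelled as macrophages. The 9 neutrophil markers summed to 260 to 309 CPM in Cre+/- CCR2low, 182 to 213 CPM in WT CCR2low, 835 to 1280 CPM in Cre+/- CCR2hi and 47.9 to 139 CPM in WT CCR2hi. The 8 monocyte markers summed to 1160 to 1590 CPM in Cre+/- CCR2low, 703 to 1070 CPM in WT CCR2low, 1110 to 1470 CPM in Cre+/- CCR2hi and 987 to 1660 CPM in WT CCR2hi. No marker of these lists was at 0 in any group. In bulk RNA, fewer cells of a type and less RNA per cell cannot be told apart. For that reason fold changes of the 10 genes are given on TMM scaling, which levels the libraries by a trimmed mean over genes. They are also given with the 15 macrophage or the 14 pan-leukocyte markers set level. On TMM the median log2 fold change of all genes tested was −0.18 for Cre+/- against WT in CCR2low and −0.03 in CCR2hi. Between gates it was −0.01 in Cre+/- and 0.01 in WT.

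Several genes of the pathway are known targets of NF-kB themselves, and the promoter windows that hold a kB match are shown here so that the letters can be seen beside the values. The 250 bases before the annotated start were taken from a RefSeq promoter table (GRCm38.p6), in which 7 of the 10 genes were matched (Tnf, Tnfrsf1a, Tnfrsf1b, Nfkb2, Rel, Nfkbia and Tnfaip3; not Nfkb1, Relb and Nfkbiz). The kB decamer consensus reads as 3 G, a purine, any base, A or T, 2 pyrimidines and 2 C, and it was searched on both strands. It is found in 3.9% of 32851 promoter windows of this length. Another form, 3 G, any 3 bases and then TTCC, is found in 4.65% of them, and the forms overlap. Capitals mark the bases of consensus matches, merged where matches overlap, in Nfkb2 (chr19:46304487-46304736, plus strand), Rel (chr11:23770970-23771219, minus strand), Nfkbia (chr12:55492648-55492897, minus strand) and Tnfaip3 (chr10:19015411-19015660, minus strand), each written 5′ to 3′ on the gene's strand.
Nfkb2: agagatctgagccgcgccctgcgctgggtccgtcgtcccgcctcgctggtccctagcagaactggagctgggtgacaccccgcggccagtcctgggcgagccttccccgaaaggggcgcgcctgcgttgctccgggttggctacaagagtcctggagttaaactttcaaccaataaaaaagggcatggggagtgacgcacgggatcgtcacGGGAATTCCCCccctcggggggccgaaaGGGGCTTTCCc
Rel: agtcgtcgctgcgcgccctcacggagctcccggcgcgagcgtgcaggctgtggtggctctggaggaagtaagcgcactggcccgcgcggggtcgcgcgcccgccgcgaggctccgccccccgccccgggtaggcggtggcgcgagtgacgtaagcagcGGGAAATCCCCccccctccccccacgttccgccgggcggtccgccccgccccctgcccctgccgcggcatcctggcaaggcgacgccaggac
Nfkbia: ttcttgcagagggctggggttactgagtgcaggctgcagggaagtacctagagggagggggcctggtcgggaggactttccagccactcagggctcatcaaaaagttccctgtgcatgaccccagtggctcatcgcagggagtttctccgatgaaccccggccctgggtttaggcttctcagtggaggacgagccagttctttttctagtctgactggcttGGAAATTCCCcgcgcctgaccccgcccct
Tnfaip3: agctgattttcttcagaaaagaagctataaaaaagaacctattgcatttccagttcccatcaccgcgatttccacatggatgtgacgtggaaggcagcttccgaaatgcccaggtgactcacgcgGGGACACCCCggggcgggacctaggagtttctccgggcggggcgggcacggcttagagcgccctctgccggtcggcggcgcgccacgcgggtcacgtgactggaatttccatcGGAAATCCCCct
The matches begin 39 and 11 bases before the start in Nfkb2, 92 bases before it in Rel, 29 bases in Nfkbia, and 125 and 12 bases in Tnfaip3. The windows of Tnf, Tnfrsf1a and Tnfrsf1b hold no match of either form, which says only that these letters are not in those 250 bases. Further windows of Nfkb2 and Tnfaip3, at other annotated starts, are not shown.

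Tnf (chr17:35199381-35202007), the gene of the ligand, differed most between the groups. It was at 519, 486 and 512 TPM in Cre+/- CCR2low, 279, 317 and 256 TPM in WT CCR2low, 183, 194 and 231 TPM in Cre+/- CCR2hi and 34.7, 31.4 and 45.9 TPM in WT CCR2hi (TPM is a level per transcript length, scaled to the same sum in every library). The 4 groups were ordered in this way with no overlap between neighbours, and the mean of the highest was 13.5 times that of the lowest. All 12 values are shown in the plot of levels by library.

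**Figure D1:**
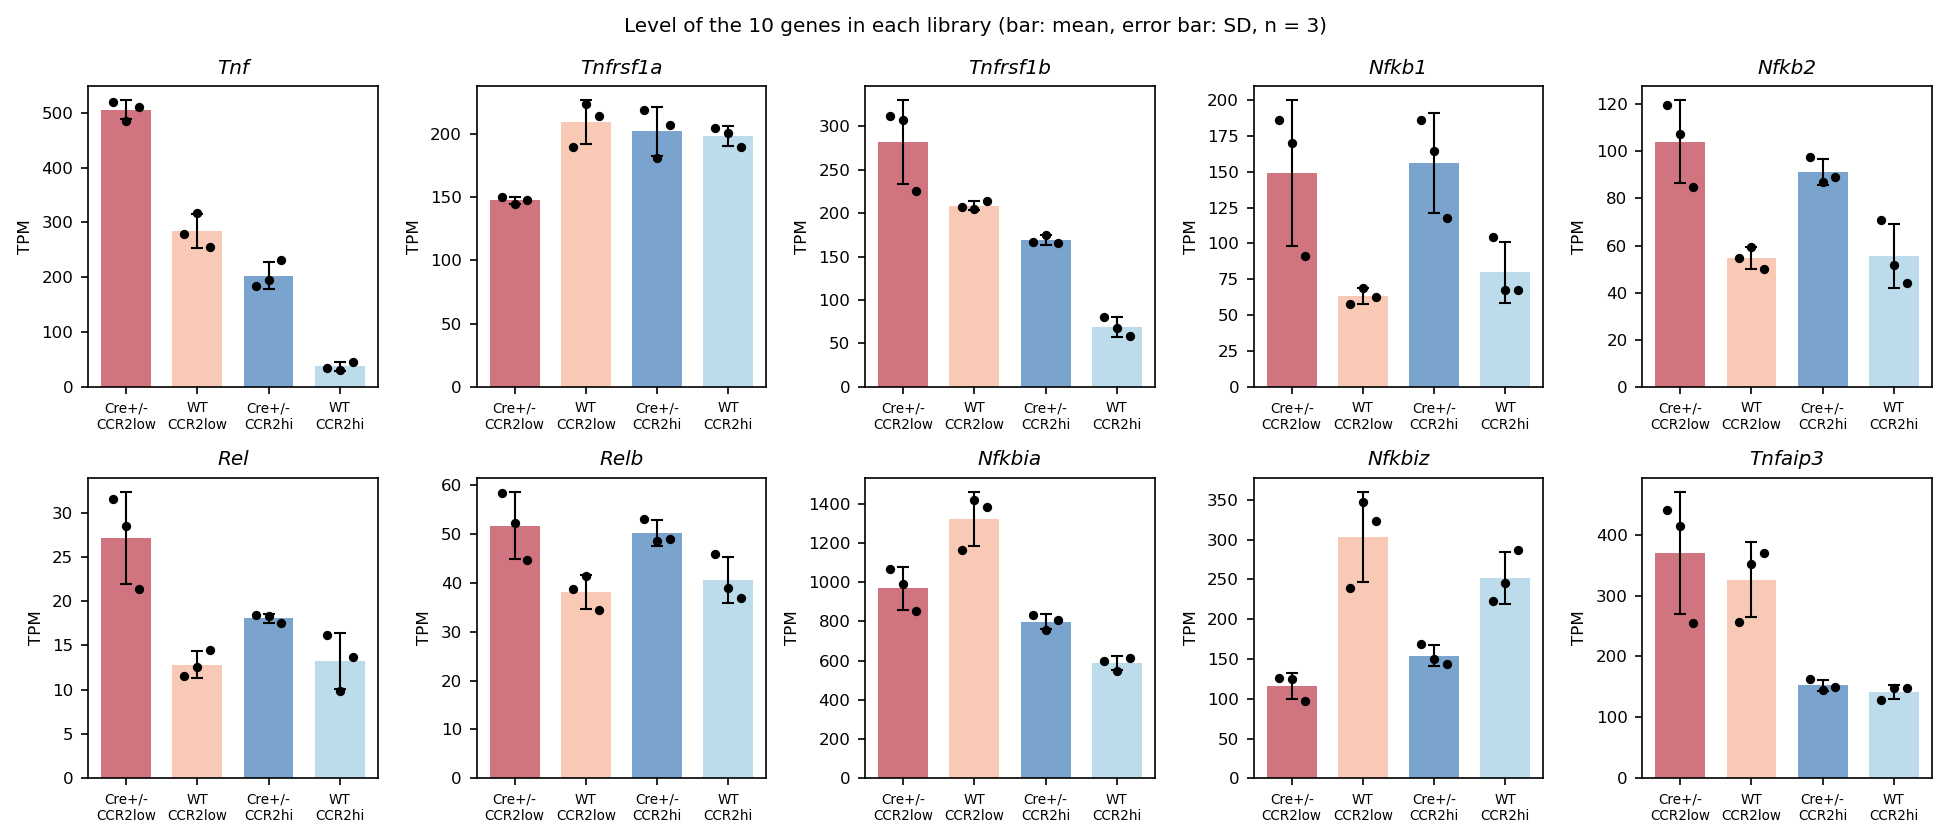
Level in TPM of the 10 genes in each of the 12 libraries, 1 panel per gene. Points are libraries, bars are group means and error bars are the SD of 3 libraries; Tnf is highest in Cre+/- CCR2low (486 to 519 TPM), and Nfkbiz is lower in both Cre+/- groups (96.8 to 169 TPM) than in both WT groups (222 to 348 TPM).

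Between genotypes, Tnf was higher in Cre+/- than in WT in both gates. On TMM scaling the log2 fold change was 0.86 ± 0.177 in CCR2low (SE, edgeR adjusted p = 0.00196), a 1.81-fold difference, and 2.59 ± 0.188 in CCR2hi (adjusted p = 1.33e-06), a 6.02-fold difference. With the macrophage markers set level the values were 1.03 (adjusted p = 0.0225) in CCR2low and 1.67 (adjusted p = 0.000493) in CCR2hi. With the leukocyte markers set level they were 0.82 (adjusted p = 0.0226) and 1.38 (adjusted p = 0.000222). Both genotype calls of Tnf also held when each library was left out in turn (0.75 to 1.05 in CCR2low, 2.47 to 2.79 in CCR2hi). Relative to the mean TPM of the 15 macrophage markers, Tnf was at 32.7 ± 0.949% in Cre+/- CCR2low and 15.2 ± 1.54% in WT CCR2low, and at 47.2 ± 0.579% in Cre+/- CCR2hi and 16.6 ± 6.56% in WT CCR2hi (SD, n = 3 each).

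Between gates, Tnf RNA was higher in CCR2low than in CCR2hi per total RNA, by a log2 fold change of 1.55 ± 0.18 in Cre+/- (edgeR adjusted p = 8.03e-06) and 3.29 ± 0.193 in WT (adjusted p = 4.34e-08). Those differences ended with the macrophage markers set level, at −0.50 (adjusted p = 0.0974) in Cre+/- and 0.13 (adjusted p = 0.647) in WT. With the leukocyte markers set level they were 0.18 (adjusted p = 0.483) in Cre+/- and 0.74 (adjusted p = 0.00711) in WT. The gate difference was smaller in Cre+/- than in WT on TMM scaling (interaction −1.73 ± 0.251, adjusted p = 0.00168), which is the same as a larger genotype difference in CCR2hi than in CCR2low. The interaction was not called with the macrophage markers set level (−0.64, adjusted p = 0.202) or with the leukocyte markers set level (−0.56, adjusted p = 0.156).

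**Figure D2:**
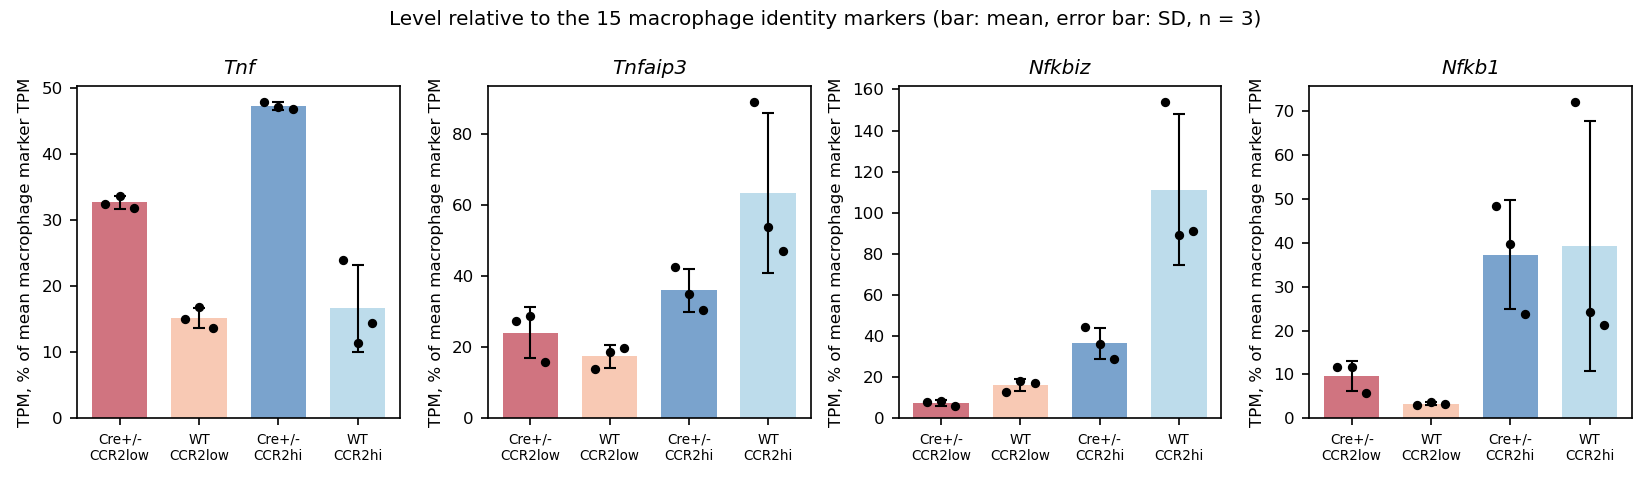
TPM of Tnf, Tnfaip3, Nfkbiz and Nfkb1 in each library as a percentage of the mean TPM of the 15 macrophage identity markers. Points are libraries, bars are group means and error bars are the SD of 3 libraries; Tnf is at 31.9 to 33.7% and 46.8 to 47.9% in the Cre+/- groups and at 11.4 to 24% in the WT groups.

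The receptor genes had unlike patterns. Tnfrsf1a (chr6:125349362-125362484), for TNFR1, was at 149.9, 145 and 148 TPM in Cre+/- CCR2low, 189.8, 224 and 214 TPM in WT CCR2low, 219, 181 and 207 TPM in Cre+/- CCR2hi and 205, 200.3 and 189.9 TPM in WT CCR2hi. Its 4 group means lay within 1.42-fold of each other, and all groups other than Cre+/- CCR2low overlapped with a neighbour. In CCR2low it was lower in Cre+/- than in WT (−0.47 ± 0.116, edgeR adjusted p = 0.00573), and in CCR2hi the difference was 0.19 ± 0.116 (adjusted p = 0.23). The CCR2low call ended with the macrophage (−0.31, adjusted p = 0.539) or leukocyte markers (−0.52, adjusted p = 0.164) set level. It also ended when WT CCR2low 1 (−0.36), WT CCR2hi 1 or any 1 Cre+/- CCR2hi library was left out (−0.28 each). Those fits moved the median of all genes by 0.14 to 0.19. In CCR2hi it was lower in Cre+/- on both lists (−0.76, adjusted p = 0.0394, and −1.04, adjusted p = 0.00268), where 57.1% and 76.9% of all genes were called lower. In WT it was higher in CCR2low than in CCR2hi (0.44 ± 0.116, adjusted p = 0.00509), a call that ended without WT CCR2hi 1 (0.23, adjusted p = 0.13) or without any 1 of the Cre+/- CCR2hi libraries (0.24, adjusted p = 0.0988 to 0.109) and by limma-trend on TPM (0.07, adjusted p = 0.543). The fits without these libraries moved the median of all genes by −0.21 to −0.20. In WT the gate difference of Tnfrsf1a turned to −2.75 with macrophage and −2.14 with leukocyte markers set level (adjusted p = 2.38e-07 and 2.17e-06). In Cre+/- the gate difference was −0.22 ± 0.116 (adjusted p = 0.128). There it was called lower in CCR2low on library size scaling (−0.43, adjusted p = 0.00316), by limma-trend on TPM (−0.45, adjusted p = 0.00212) and with macrophage (−2.30) or leukocyte markers (−1.62) set level.

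Tnfrsf1b (chr4:145213463-145246870), for TNFR2, was at 312, 308 and 226 TPM in Cre+/- CCR2low, 207, 205 and 215 TPM in WT CCR2low, 167, 175 and 165 TPM in Cre+/- CCR2hi and 80.6, 68.3 and 58.3 TPM in WT CCR2hi. The groups stood in the same order as those of Tnf and did not overlap. Tnfrsf1b was higher in Cre+/- than in WT by 0.46 ± 0.127 in CCR2low (edgeR adjusted p = 0.0109) and by 1.45 ± 0.129 in CCR2hi (adjusted p = 6.38e-06). These calls ended with either marker list set level, at 0.64 and 0.44 for macrophage markers (adjusted p = 0.219 and 0.252) and at 0.44 and 0.18 for leukocyte markers (adjusted p = 0.32 and 0.588). It was higher in CCR2low than in CCR2hi by 0.96 ± 0.128 in Cre+/- and 1.96 ± 0.131 in WT (adjusted p = 2.67e-05 and 1.06e-07). Set against macrophage markers it was lower in CCR2low, at −1.09 in Cre+/- and −1.29 in WT (adjusted p = 0.00597 and 0.00168). Set against leukocyte markers it was at −0.41 in Cre+/- (adjusted p = 0.215) and lower in WT, at −0.67 (adjusted p = 0.0466).

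Within each library, the ratio of the receptors does not depend on scaling, but it can still follow the mix of cells. Leukocyte and fibroblast marker sums differed between genotypes in CCR2hi, and their part in the ratio was not tested. The TPM of Tnfrsf1b divided by that of Tnfrsf1a was 2.08, 2.12 and 1.53 in Cre+/- CCR2low, against 1.09, 0.917 and 1.00 in WT CCR2low. It was 0.763, 0.969 and 0.801 in Cre+/- CCR2hi, against 0.394, 0.341 and 0.307 in WT CCR2hi. In each gate the ratio was higher in all 3 Cre+/- libraries than in all 3 WT libraries, which is given here as a description with no test.

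Of the NF-kB subunits, Nfkb1 and Nfkb2 encode the precursors p105 and p100 of p50 and p52, and Rel and Relb encode c-Rel and RelB, which carry transactivation domains. All 4 genes were higher in Cre+/- than in WT in both gates on TMM scaling. Nfkb1 (chr3:135584655-135691547) was at 186, 169.9 and 91.2 TPM in Cre+/- CCR2low, 57.7, 68.8 and 62.5 TPM in WT CCR2low, 186, 164 and 117 TPM in Cre+/- CCR2hi and 104, 67.2 and 67.6 TPM in WT CCR2hi. In both gates the Cre+/- library numbered 3 was the lowest of its group and still above the WT libraries. The log2 fold change was 1.21 ± 0.218 in CCR2low (edgeR adjusted p = 0.000831) and 1.09 ± 0.218 in CCR2hi (adjusted p = 0.00223). An annotated locus on the same strand, Gm43430, overlaps Nfkb1, so that their reads may be shared.

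Nfkb2 (chr19:46304320-46312385) was at 119.7, 108 and 85.1 TPM in Cre+/- CCR2low, 54.6, 59.2 and 50.1 TPM in WT CCR2low, 97.6, 86.9 and 89.2 TPM in Cre+/- CCR2hi and 70.6, 51.8 and 44.3 TPM in WT CCR2hi. The Cre+/- groups lay above the WT groups with no overlap. The differences were 0.95 ± 0.155 in CCR2low (edgeR adjusted p = 0.000435) and 0.88 ± 0.155 in CCR2hi (adjusted p = 0.000966). Psd and a bidirectional promoter RNA overlap Nfkb2 on the other strand, and since no label states that counting used strand, their reads cannot be told from those of Nfkb2.

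Rel (chr11:23736847-23770970) was the least abundant of the 10 genes. It was at 31.5, 28.5 and 21.4 TPM in Cre+/- CCR2low, 11.5, 12.5 and 14.5 TPM in WT CCR2low, 18.4, 18.3 and 17.5 TPM in Cre+/- CCR2hi and 16.2, 9.91 and 13.7 TPM in WT CCR2hi. It was higher in Cre+/- by 1.12 ± 0.155 in CCR2low (edgeR adjusted p = 0.00017) and by 0.62 ± 0.154 in CCR2hi (adjusted p = 0.00853). Relb (chr7:19606217-19629438) was at 58.4, 52.2 and 44.6 TPM in Cre+/- CCR2low, 38.7, 41.3 and 34.5 TPM in WT CCR2low, 53.1, 48.5 and 48.9 TPM in Cre+/- CCR2hi and 45.9, 38.9 and 37 TPM in WT CCR2hi. It was higher in Cre+/- by 0.49 ± 0.129 in CCR2low (adjusted p = 0.00797) and by 0.49 ± 0.129 in CCR2hi (adjusted p = 0.012). For Rel and Relb the Cre+/- and WT libraries of a gate did not overlap. The CCR2hi call of Relb ended without WT CCR2hi 3 (0.43, adjusted p = 0.0512), and limma-trend on TPM ended those of Rel (0.44, adjusted p = 0.0822) and Relb (0.30, adjusted p = 0.0882).

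On the marker scalings the subunit calls were not the same in the 2 gates. In CCR2low, Nfkb1, Nfkb2 and Rel were also called higher in Cre+/- with the macrophage markers set level (1.41, 1.14 and 1.29, adjusted p = 0.0289, 0.0448 and 0.0231), and Relb was at 0.68 (adjusted p = 0.175). With the leukocyte markers set level, Nfkb1 (1.21, adjusted p = 0.041) and Rel (1.09, adjusted p = 0.0299) were called and Nfkb2 (0.94, adjusted p = 0.0577) and Relb (0.47, adjusted p = 0.259) were not. In CCR2hi no subunit was called higher on either list, and Nfkb2, Rel and Relb turned in sign on both (macrophage: −0.16, −0.40 and −0.51; leukocyte: −0.42, −0.66 and −0.77, of which Relb passed as lower, adjusted p = 0.0259). Nfkb1 in CCR2hi was at 0.07 on macrophage markers (adjusted p = 0.877) and −0.18 on leukocyte markers (adjusted p = 0.678). In the CCR2hi gate, 12 of 14 pan-leukocyte markers, 8 of 15 macrophage markers, 6 of 8 monocyte markers and 8 of 9 neutrophil markers were called higher in Cre+/- on TMM scaling, with medians of 1.13, 0.70, 1.93 and 3.25. Called lower there were 0, 1, 1 and 0 of them. In CCR2low 2 of 14, 1 of 15, 2 of 8 and 0 of 9 were called higher, and 0, 1, 2 and 0 lower. Beside these, 16.2% of all genes were called higher and 15.9% lower in CCR2hi, and 16.4% and 26.7% in CCR2low. The part of these markers in the result was not tested beyond the scalings given.

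**Figure D3:**
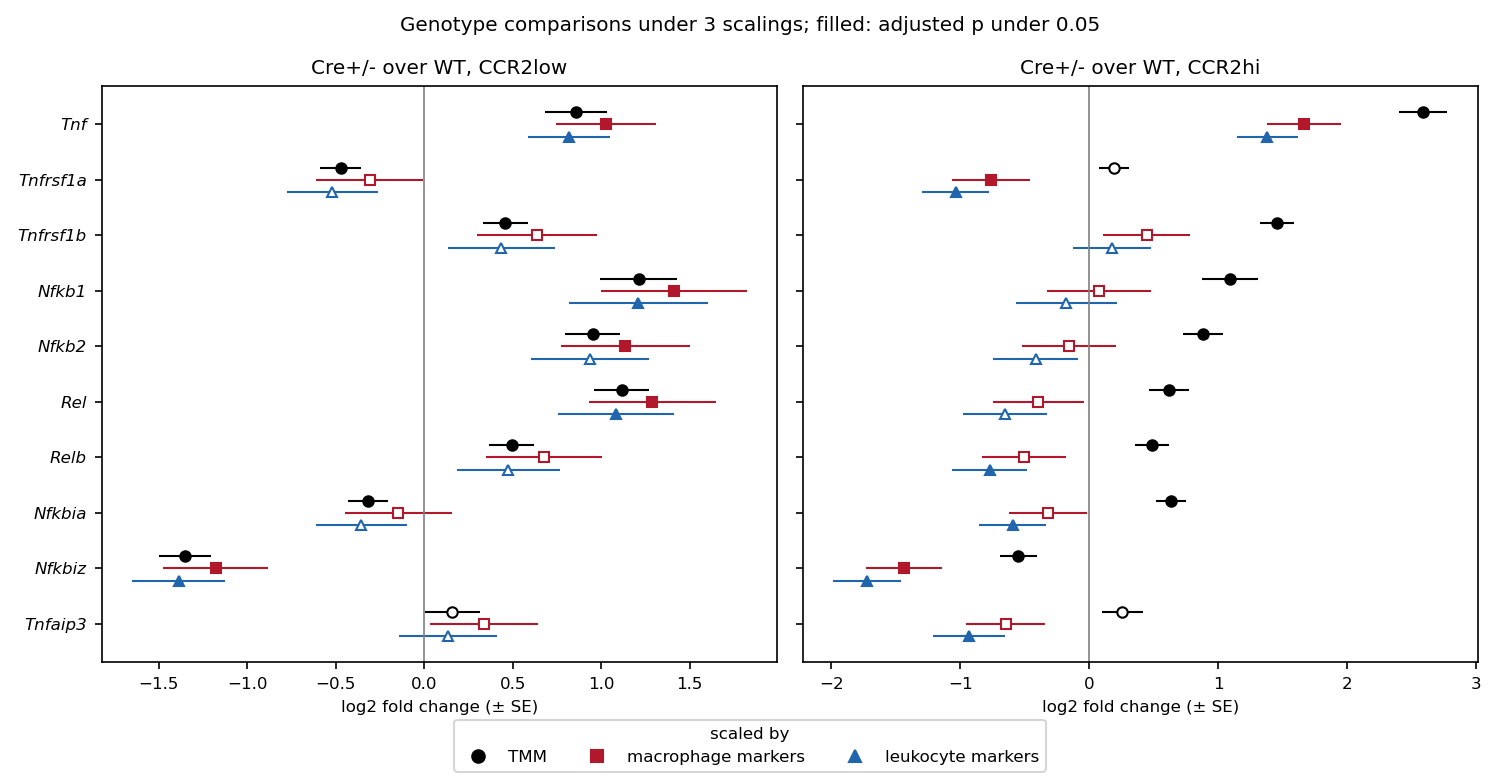
Log2 fold change (± SE) of Cre+/- over WT for the 10 genes in CCR2low (left) and CCR2hi (right), on TMM scaling (circles), macrophage markers (squares) and leukocyte markers (triangles). Filled symbols have an adjusted p under 0.05; Tnf is filled on the right of 0 and Nfkbiz on the left of 0 on every scaling in both gates, while in CCR2hi Nfkb2, Rel, Relb, Nfkbia, Tnfaip3 and Tnfrsf1a change side on the marker scalings and Nfkb1 on leukocyte markers.

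Between gates 2 of the 4 subunit genes were called on TMM scaling in Cre+/- and 0 in WT, where 54.1% and 59.8% of all genes tested were called. In Cre+/-, Rel was higher in CCR2low than in CCR2hi (0.81 ± 0.154, edgeR adjusted p = 0.00055) and so was Nfkb2 (0.42 ± 0.154, adjusted p = 0.0347). Nfkb1 and Relb were at 0.10 ± 0.215 and 0.28 ± 0.129 (adjusted p = 0.713 and 0.0818). In WT none of the 4 was called, with Nfkb1 at −0.02 ± 0.215, Nfkb2 at 0.34 ± 0.154, Rel at 0.31 ± 0.154 and Relb at 0.27 ± 0.129 (adjusted p = 0.935, 0.0695, 0.098 and 0.0845). With macrophage markers set level all 4 were called lower in CCR2low in both genotypes, at −1.97 to −1.25 in Cre+/- and −3.31 to −2.94 in WT. Of all genes tested, 91.4% in Cre+/- and 94.7% in WT were called lower on that scaling, and 79.3% and 91.7% on leukocyte scaling. The medians of all genes were −2.07 and −3.18 on macrophage scaling, and −1.39 and −2.57 on leukocyte scaling. With leukocyte markers all 4 were called lower in WT (−2.68 to −2.31), and in Cre+/- all but Rel (−0.57, adjusted p = 0.117) were, at −1.29 to −0.97. Single libraries moved these calls: in Cre+/-, that of Nfkb2 ended without Cre+/- CCR2low 1 (0.34) or 2 (0.44) or any Cre+/- CCR2hi library (0.40 to 0.45) and was 0.64 without Cre+/- CCR2low 3, Nfkb1 was called without Cre+/- CCR2low 3 (0.47, adjusted p = 0.0491), and Relb without WT CCR2low 1 (0.44) or Cre+/- CCR2low 3 (0.48). In WT, Nfkb2 (0.44, adjusted p = 0.0345) and Relb (0.39, adjusted p = 0.02) were called without WT CCR2low 3. Scaling is set anew in each such fit. Between the Cre+/- gates it moved the median of all genes by 0.18 without Cre+/- CCR2low 3 and 0.16 without WT CCR2low 1. Between the WT gates it moved that median by 0.012 without WT CCR2low 3. Without both Cre+/- libraries numbered 3, Nfkb1 in Cre+/- was at 0.14 (adjusted p = 0.57) and Relb at 0.30 (adjusted p = 0.135).

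The inhibitors moved apart from each other. Nfkbiz (chr16:55811375-55838899) encodes IkBz, a nuclear IkB protein that binds p50 and helps switch on a secondary set of NF-kB targets. It was at 126, 124 and 96.8 TPM in Cre+/- CCR2low, 239, 348 and 323 TPM in WT CCR2low, 169, 149.8 and 144 TPM in Cre+/- CCR2hi and 222, 246 and 287 TPM in WT CCR2hi. Every Cre+/- library was below every WT library. Of the 10 genes it was the only one called lower in Cre+/- in both gates, at −1.35 ± 0.147 in CCR2low (edgeR adjusted p = 4.52e-05) and −0.55 ± 0.145 in CCR2hi (adjusted p = 0.0113). It was also called lower in both gates with macrophage markers (−1.18 and −1.44, adjusted p = 0.0138 and 0.00137) and with leukocyte markers set level (−1.39 and −1.72, adjusted p = 0.00321 and 0.000117). On these lists 7.41% and 15.2% of all genes tested were called lower in CCR2low, and 57.1% and 76.9% in CCR2hi. In CCR2hi these scalings moved the median of all genes by −0.94 and −1.22, so that a lower call there is common to most genes. On TMM scaling the CCR2hi call of Nfkbiz ended without WT CCR2hi 3 (−0.42, adjusted p = 0.0543). Between gates it was at −0.19 ± 0.144 in Cre+/- (adjusted p = 0.297) and was higher in CCR2low in WT (0.62 ± 0.145, adjusted p = 0.00229), a call that ended without WT CCR2hi 1 (0.32, adjusted p = 0.0816) and turned to −2.51 with macrophage and −1.91 with leukocyte markers set level. The fit without WT CCR2hi 1 moved the median of all genes between the WT gates by −0.21.

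Nfkbia (chr12:55489410-55492647), for the cytoplasmic inhibitor IkBa, was the most abundant of the 10 genes, with a mean of 919 TPM over the 12 libraries. It was at 1067, 989.84 and 850.03 TPM in Cre+/- CCR2low, 1165, 1418 and 1384 TPM in WT CCR2low, 829.83, 756 and 809 TPM in Cre+/- CCR2hi and 599, 544 and 612 TPM in WT CCR2hi. It was lower in Cre+/- than in WT in CCR2low (−0.32 ± 0.114, edgeR adjusted p = 0.0389) and higher in CCR2hi (0.63 ± 0.115, adjusted p = 0.00117). The CCR2low call ended in 10 of the 12 fits that leave out 1 library (all but those without WT CCR2hi 2 or 3), with values of −0.33 to −0.12. These fits moved the median of all genes by −0.012 to 0.19. The call also ended with macrophage (−0.15, adjusted p = 0.789) or leukocyte markers (−0.35, adjusted p = 0.343) set level and with no filter on low counts (−0.18, adjusted p = 0.445). The CCR2hi value turned to −0.32 (adjusted p = 0.352) with macrophage and −0.59 (adjusted p = 0.0462) with leukocyte markers set level. Between gates Nfkbia was higher in CCR2low by 0.48 ± 0.114 in Cre+/- and 1.43 ± 0.116 in WT (adjusted p = 0.00295 and 3.36e-07), and lower, at −1.59 and −1.76 with macrophage markers set level (adjusted p = 0.000124 and 2.99e-05), and −0.91 and −1.15 with leukocyte markers (adjusted p = 0.00509 and 0.000617).

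Tnfaip3 (chr10:19000910-19015657), for the ubiquitin-editing enzyme A20 that shuts down signalling from TNFR1, followed the gate on TMM scaling. It was at 441, 414 and 256 TPM in Cre+/- CCR2low, 256, 352 and 369.6 TPM in WT CCR2low, 163, 145 and 150.35 TPM in Cre+/- CCR2hi and 129, 149 and 148 TPM in WT CCR2hi. It was higher in CCR2low than in CCR2hi by 1.47 ± 0.161 in Cre+/- (edgeR adjusted p = 4.92e-06) and by 1.57 ± 0.161 in WT (adjusted p = 2.21e-06). Set against macrophage markers these values were −0.58 in Cre+/- (adjusted p = 0.0798) and −1.57 in WT (adjusted p = 0.000112), and against leukocyte markers 0.10 (adjusted p = 0.736) and −0.97 (adjusted p = 0.00411). Between genotypes it was at 0.16 ± 0.158 in CCR2low (adjusted p = 0.435, 95% interval −0.18 to 0.50) and at 0.25 ± 0.158 in CCR2hi (adjusted p = 0.235, interval −0.09 to 0.60). Without Cre+/- CCR2low 3, which had 256 TPM, the CCR2low value was 0.46 (adjusted p = 0.027), in a fit that moved the median of all genes by 0.17. Without both Cre+/- libraries numbered 3 the CCR2low value was 0.30 (adjusted p = 0.125). In CCR2hi it was lower in Cre+/- with leukocyte markers set level (−0.93, adjusted p = 0.00777) and at −0.65 with macrophage markers (adjusted p = 0.0748).

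Ratios of TPM within a library show these contrasts with no scaling. Nfkbiz over Nfkbia was 0.118, 0.126 and 0.114 in Cre+/- CCR2low, against 0.205, 0.245 and 0.233 in WT CCR2low. It was 0.204, 0.198 and 0.178 in Cre+/- CCR2hi, against 0.371, 0.451 and 0.469 in WT CCR2hi. In each gate all 3 Cre+/- ratios were below all 3 WT ratios. Tnf over Tnfaip3, the ligand over an inhibitor, was 1.18, 1.17 and 2.00 in Cre+/- CCR2low, against 1.09, 0.9 and 0.693 in WT CCR2low. It was 1.13, 1.34 and 1.54 in Cre+/- CCR2hi, against 0.269, 0.211 and 0.31 in WT CCR2hi. All Cre+/- ratios were above the WT ratios of their gate, by the larger step in CCR2hi. Nfkbia over Tnfaip3 was lower in Cre+/- CCR2low (2.42, 2.39 and 3.33) than in WT CCR2low (4.55, 4.02 and 3.74) and higher in Cre+/- CCR2hi (5.1, 5.23 and 5.38) than in WT CCR2hi (4.66, 3.66 and 4.13). These ratios are descriptions with no test, and they can also follow the mix of cells, the part of which was not tested.

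Counted together, in CCR2low 6 of the 10 genes were called higher in Cre+/- than in WT (Tnf, Tnfrsf1b, Nfkb1, Nfkb2, Rel and Relb) and 3 lower (Tnfrsf1a, Nfkbia and Nfkbiz), at an edgeR adjusted p under 0.05. Of all genes tested, 16.4% were called higher and 26.7% lower, 43% in all. The median log2 fold change of the 10 genes was 0.48, beside −0.18 over all genes tested. The count of 3 lower was 1, Nfkbiz, without WT CCR2low 1, WT CCR2hi 1 or any Cre+/- CCR2hi library. Scaling is set anew in each such fit, and in these 5 it moved the median of all genes by 0.14 to 0.19. In TMM-scaled CPM, the Cre+/- and WT libraries did not overlap for 9 of the 10 genes, and for 51.4% of all genes tested. With the macrophage markers set level 4 genes were called higher and 1 lower, where 7.8% and 7.41% of all genes were, and with the leukocyte markers 3 and 1, where 6.13% and 15.2% were. With both marker lists as with TMM, 4 genes were called in the same direction: Tnf, Nfkb1 and Rel higher and Nfkbiz lower.

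In CCR2hi 7 genes were called higher in Cre+/- (the same 6 and Nfkbia) and 1 lower (Nfkbiz). Of all genes, 16.2% were called higher and 15.9% lower, 32.1% in all. The median was 0.63 for the 10 genes and −0.03 for all genes tested. In CPM the genotypes did not overlap for any of the 10 genes, nor for 48.4% of all genes tested, whereas in TPM those of Tnfrsf1a and Tnfaip3 did. Only Tnf and Nfkbiz among the 10 were called in the same direction on TMM and on both marker lists. With the macrophage markers set level 1 gene was called higher and 2 lower, where 2.19% and 57.1% of all genes were, and with the leukocyte markers 1 and 5, where 1.63% and 76.9% were. Without WT CCR2hi 3, the count of lower genes was 0 and that of higher genes 6.

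**Figure D4:**
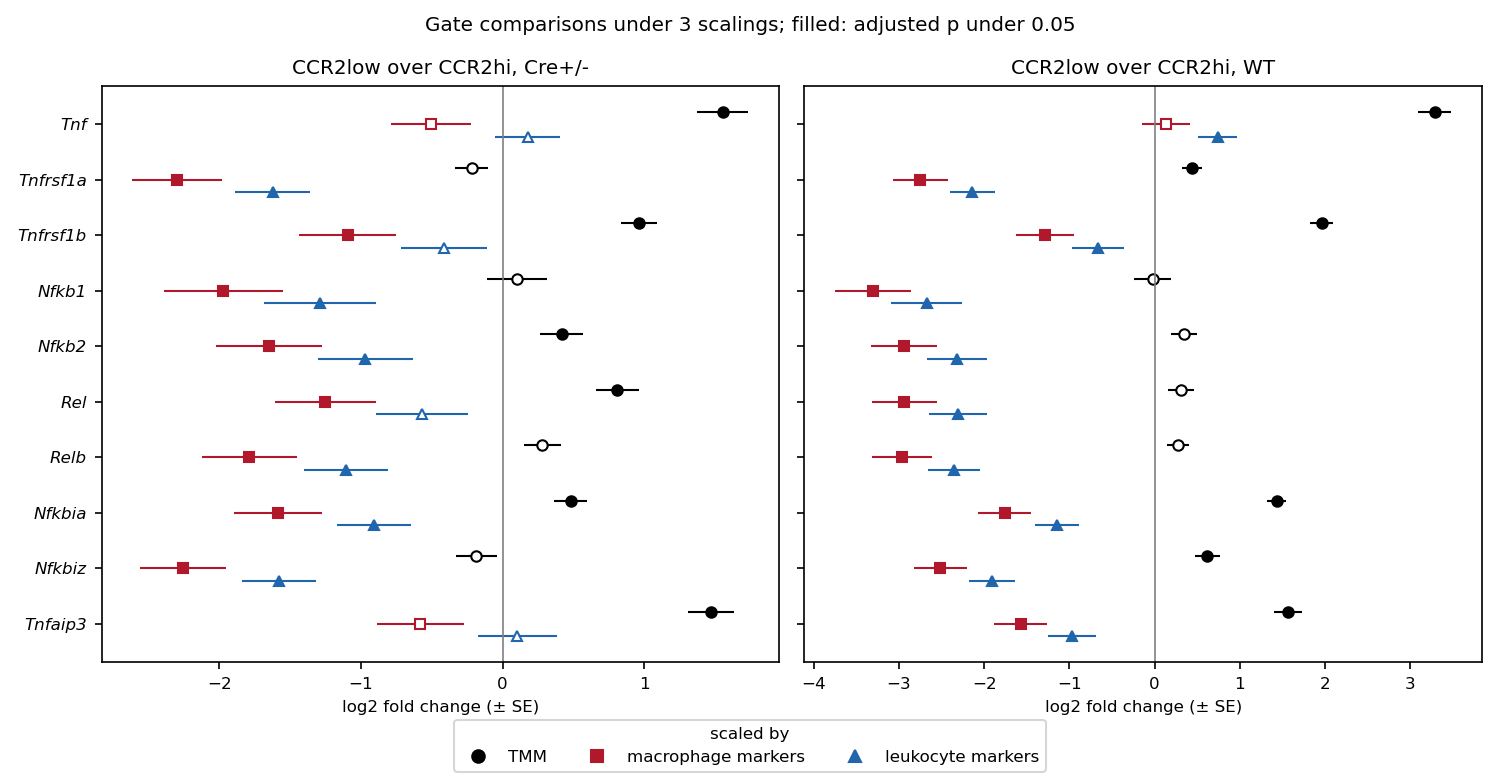
Log2 fold change (± SE) of CCR2low over CCR2hi for the 10 genes in Cre+/- (left) and WT (right), on TMM scaling (circles), macrophage markers (squares) and leukocyte markers (triangles). Filled symbols have an adjusted p under 0.05; the 6 genes called higher on TMM in each genotype lie left of 0 on macrophage markers, other than Tnf in WT at 0.13.

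Between gates, 6 genes were called higher in CCR2low than in CCR2hi in Cre+/- (Tnf, Tnfrsf1b, Nfkb2, Rel, Nfkbia and Tnfaip3) and 0 lower, and 8 of 10 did not overlap in CPM, as did not 61.3% of all genes tested. Of all genes, 24.9% were called higher and 29.1% lower, 54.1% in all. In WT 6 were called higher (Tnf, Tnfrsf1a, Tnfrsf1b, Nfkbia, Nfkbiz and Tnfaip3) and 0 lower, and 6 of 10 did not overlap in CPM, a share below the 66% of all genes tested. Here 29.8% of all genes were called higher and 30% lower, 59.8% in all. The medians of the 10 genes were 0.45 in Cre+/- and 0.53 in WT, beside −0.01 and 0.01 over all genes. All 15 macrophage markers were higher in CCR2low in both genotypes, with medians of 2.22 in Cre+/- and 3.10 in WT, and all 10 fibroblast markers lower (−3.58 and −3.25). With macrophage markers set level, 0 genes were called higher and 8 lower in Cre+/-, and 0 higher and 9 lower in WT, where 0.441% of all genes were called higher and 91.4% lower in Cre+/-, and 0.789% and 94.7% in WT. With leukocyte markers 0 were higher and 6 lower in Cre+/- (1.88% and 79.3% of all genes), and 1 higher and 9 lower in WT (1.83% and 91.7%). The macrophage scaling moved the median of all genes by −2.06 in Cre+/- and −3.17 in WT, and by 0.17 and −0.94 in the genotype comparisons of CCR2low and CCR2hi; leukocyte scaling moved it by −1.38, −2.57, −0.03 and −1.22. No gate call of the 10 genes kept its direction and its call on all 3 scalings.

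The gate by genotype interaction, the CCR2low minus CCR2hi difference in Cre+/- minus that in WT, was called for 5 of the 10 genes, all negative: Tnf, Tnfrsf1b (−0.996 ± 0.18), Nfkbia (−0.95 ± 0.162), Nfkbiz (−0.80 ± 0.204) and Tnfrsf1a (−0.66 ± 0.164). Their edgeR adjusted p values were 0.00168, 0.00503, 0.00372, 0.0235 and 0.0216. Of all genes, 7.85% were called negative and 4.74% positive, 12.6% in all, and the medians were −0.38 for the 10 genes and −0.18 for all. For Nfkbia the genotype difference was negative in CCR2low and positive in CCR2hi. The calls of Tnfrsf1a (−0.68 to −0.41) and Nfkbiz (−0.93 to −0.50) each ended in 8 of the 12 fits that leave out 1 library. Those that kept them were without WT CCR2low 3, WT CCR2hi 2 or WT CCR2hi 3, and also without Cre+/- CCR2low 3 for Tnfrsf1a and without Cre+/- CCR2low 2 for Nfkbiz. The count of 5 was 3 without WT CCR2low 1 or 2, WT CCR2hi 1, Cre+/- CCR2low 1 or any Cre+/- CCR2hi library. Over the 12 fits the median interaction of all genes moved by −0.012 to 0.23. None of the 5 genes was called with either marker list set level, and all but Tnf turned positive there. The number of all genes called, 1884, was 873 without Cre+/- CCR2low 1, 950 without Cre+/- CCR2hi 3, 966 and 1154 without WT CCR2low 2 and 1, and 2865 without Cre+/- CCR2low 3. Rel (0.50 ± 0.217, adjusted p = 0.144) was called positive without WT CCR2hi 2 (0.67) or Cre+/- CCR2low 3 (0.79), while Nfkb1, Nfkb2, Relb and Tnfaip3 were at 0.12, 0.07, 0.01 and −0.10 (adjusted p = 0.817, 0.853, 0.985 and 0.808). On the marker scalings the interaction of Rel was called positive, at 1.69 with macrophage and 1.74 with leukocyte markers (adjusted p = 0.0317 and 0.0166). With leukocyte markers so were Nfkb2 (1.35, adjusted p = 0.0355), Relb (1.25, adjusted p = 0.0307) and Tnfaip3 (1.07, adjusted p = 0.0425), and Nfkb1 was at 1.39 (adjusted p = 0.0539). With macrophage markers these 4 were at 1.30, 1.18, 0.99 and 1.34 (adjusted p = 0.0711, 0.0683, 0.0902 and 0.0858). Of all genes, 19.3% were called positive and 0.688% negative on macrophage scaling, and 41.6% and 1.03% on leukocyte scaling, with medians of 0.94 and 1.01.

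Across the 12 libraries the 5 closest of the 45 pairs of members were pairs of subunit genes, by the root mean square difference of mean-centred log2 CPM. It was 0.23 between Nfkb2 and Rel, 0.24 between Nfkb2 and Relb and 0.28 between Nfkb1 and Nfkb2, while the sixth subunit pair, Nfkb1 and Relb (0.41), was less close than Nfkbia and Tnfaip3 (0.39). It was 1.75 between Tnf and Nfkbiz, the largest of the 45, and 0.69 between Tnf and Tnfrsf1b, the smallest of Tnf. Among 10542 genes of at least 5 CPM in the mean, the patterns most like that of Tnf were those of Slc16a10 (0.28), Rbm47 (0.28) and Msr1 (0.30), and those most like Nfkbiz were Zfp36l1 (0.18), Smpd3 (0.19) and Hist1h2bc (0.19). The single most alike gene was Atp8a1 (0.13) for Tnfaip3, Plpp2 (0.12) for Nfkbia and Vapa (0.07) for Rel. This measure holds the group differences and depth that all 12 libraries share, and it is a description.

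Beyond the 10 genes, 75 further genes of the pathway were taken from lists, of which 73 were tested and Lta and Tnfrsf13c (21 and 20 counts in all) were too low. In Cre+/- against WT, 28 were called higher and 12 lower in CCR2low, and 37 higher and 6 lower in CCR2hi, with medians of 0.33 and 0.50. Of all genes tested, 16.4% were called higher and 26.7% lower in CCR2low, and 16.2% and 15.9% in CCR2hi, with medians of −0.18 and −0.03. The count of 12 was 7 without WT CCR2low 1 or Cre+/- CCR2hi 3. With macrophage markers set level the CCR2hi counts were 10 higher and 22 lower, and with leukocyte markers 6 and 38, where 2.19% and 57.1% of all genes were called on macrophage and 1.63% and 76.9% on leukocyte scaling. Of 20 textbook NF-kB target genes, 9 were higher and 2 lower in CCR2low (median 0.63), and 15 higher and 0 lower in CCR2hi (median 1.51). Sod2, for mitochondrial superoxide dismutase, was at 86.98 ± 13.9 TPM in Cre+/- CCR2low and 37.7 ± 4.97 TPM in WT CCR2low, and at 62.9 ± 4.21 TPM in Cre+/- CCR2hi and 20.9 ± 1.87 TPM in WT CCR2hi (SD, n = 3 each). Its CCR2hi call on TMM scaling ended with leukocyte markers set level (0.51, edgeR adjusted p = 0.12). Bcl2a1d, for an anti-apoptotic BCL2 protein, was higher by 1.66 in CCR2low and 2.35 in CCR2hi (edgeR adjusted p = 5.94e-05 and 3.86e-06), and on both marker lists in both gates. The chemokine gene Ccl5 was higher by 2.29 in CCR2low (adjusted p = 7.02e-05), and Plaur, the urokinase receptor, by 2.36 in CCR2hi (adjusted p = 8.62e-06), both also on either marker list. Bcl2a1d has near-identical copies, so its reads may be shared with them.

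Among the 16 genes of the TNF receptor complex, 6 were higher and 3 lower in CCR2low (37.5% and 18.8%), and 6 higher and 1 lower in CCR2hi (37.5% and 6.25%). The shares of all genes tested, for this list and those below, were 16.4% higher and 26.7% lower in CCR2low, and 16.2% and 15.9% in CCR2hi. Traf1, an adaptor that is itself induced by NF-kB, was at 50.2 ± 8.48 TPM in Cre+/- CCR2low and 19.2 ± 4.25 TPM in WT CCR2low, and at 52.6 ± 7.15 TPM in Cre+/- CCR2hi and 12.95 ± 1.78 TPM in WT CCR2hi. Its differences of 1.44 and 2.12 held on both marker lists (macrophage: 1.64 and 1.09; leukocyte: 1.44 and 0.83). Cflar, which blocks caspase-8, was higher by 1.98 in CCR2low and 1.07 in CCR2hi, and Ripk3, the kinase of necroptosis, by 1.21 in each. In CCR2low these held on both lists, and in CCR2hi on neither (Cflar 0.08 and −0.18, Ripk3 0.24 and −0.03 on macrophage and leukocyte markers). Of the IKK and upstream kinases, 4 of 10 were higher and 1 lower in CCR2low, and 3 higher and 1 lower in CCR2hi, so that the 10% lower in each gate was below the share of all genes. Tbk1, a kinase of the interferon branch, was higher by 1.002 and 0.83 (adjusted p = 0.000927 and 0.00438), and Ikbkg, the NEMO scaffold, was lower in CCR2hi by −0.49 (adjusted p = 0.0048). Tbk1 in CCR2hi was at −0.12 and −0.39 on the marker lists and was not called by limma-trend on TPM. In CCR2low its call ended with leukocyte markers set level (0.97, adjusted p = 0.0544).

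**Figure D5:**
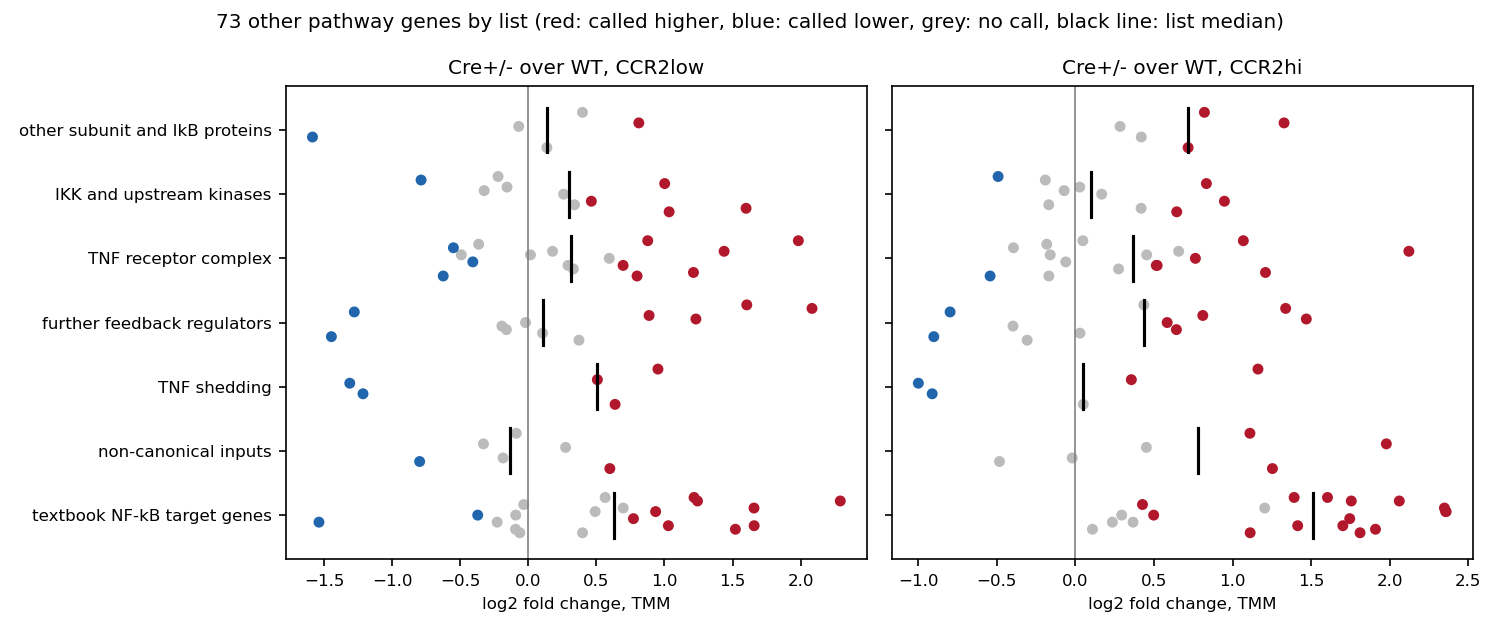
Log2 fold change of Cre+/- over WT on TMM scaling for 73 further pathway genes by list, in CCR2low (left) and CCR2hi (right). Points are genes (red called higher, blue called lower, grey not called) and black lines are list medians, which for the NF-kB target genes are 0.63 in CCR2low and 1.51 in CCR2hi; on marker scalings many CCR2hi points lie further left.

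Of 5 other subunit and IkB genes, 1 was higher and 1 lower in CCR2low, and 3 higher and 0 lower in CCR2hi. The 20% each way in CCR2low is near the 16.4% and 26.7% of all genes, and in CCR2hi 16.2% and 15.9% of all genes were called. Rela, for the subunit p65, was not called in either gate (−0.07 in CCR2low, adjusted p = 0.696, and 0.28 in CCR2hi, adjusted p = 0.121), but was called higher in CCR2hi on library size scaling (0.37) or without WT CCR2hi 1 (0.42) and lower with leukocyte markers set level (−0.99). It was at 77.8 ± 1.48 TPM in Cre+/- CCR2low and 83.8 ± 1.51 TPM in WT CCR2low, and at 95.2 ± 10.2 TPM in Cre+/- CCR2hi and 87.3 ± 17 TPM in WT CCR2hi. Nfkbid, for the nuclear IkB protein IkBNS, was at 29.4 ± 3.24 TPM in Cre+/- CCR2low and 90.9 ± 6.97 TPM in WT CCR2low, lower, at −1.59 (edgeR adjusted p = 0.000924) and also on both marker lists. Nfkbib, for the inhibitor IkBb, was higher by 0.81 in CCR2low (adjusted p = 0.000488) and 1.33 in CCR2hi (adjusted p = 2.04e-05), and in CCR2hi was at 0.34 and 0.07 on the marker lists. Its CCR2low call ended with leukocyte markers set level (0.78, adjusted p = 0.0583).

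Of 11 further feedback regulators, 4 were higher and 2 lower in CCR2low (36.4% and 18.2%), and 5 higher and 2 lower in CCR2hi (45.5% and 18.2%). All genes tested had 16.4% higher and 26.7% lower in CCR2low, and 16.2% and 15.9% in CCR2hi. Tnip1, an A20 partner, was at 97.04 ± 16.5 TPM in Cre+/- CCR2low and 42.65 ± 1.2 TPM in WT CCR2low, and at 87.2 ± 10.3 TPM in Cre+/- CCR2hi and 39.2 ± 3.75 TPM in WT CCR2hi. It was called higher in both gates on TMM (1.23 and 1.47) and in CCR2low on both marker lists, while in CCR2hi the marker scalings gave 0.50 and 0.23. Zfp36l1, an RNA-binding protein that destabilises AU-rich mRNAs, was lower, at −1.28 in CCR2low (edgeR adjusted p = 4.52e-05) and −0.80 in CCR2hi (adjusted p = 0.000827). Zfp36l1 was also lower on both marker lists in both gates, where 57.1% and 76.9% of all genes were called lower in CCR2hi. It is also the gene whose pattern was most like that of Nfkbiz.

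Of 5 genes of TNF shedding, 3 were higher and 2 lower in CCR2low, and 2 higher and 2 lower in CCR2hi. For this list and the next, 16.4% of all genes were higher and 26.7% lower in CCR2low, and 16.2% and 15.9% in CCR2hi. Rhbdf2, for iRhom2, which brings the TNF sheddase ADAM17 to the surface of myeloid cells, was higher by 0.95 in CCR2low and 1.16 in CCR2hi (edgeR adjusted p = 0.000158 and 4.61e-05). It was called on both marker lists in CCR2low and was at 0.17 and −0.09 in CCR2hi. Rhbdf1 (−1.21 and −0.91) and Timp3, an inhibitor of ADAM17 (−1.31 and −0.998), were lower in both gates, beside fibroblast markers that were called lower for 6 of 10 in CCR2low and 4 of 10 in CCR2hi. The Timp3 call in CCR2hi ended without Cre+/- CCR2hi 2 or 3. Of 6 tested genes of non-canonical inputs, 1 was higher and 1 lower in CCR2low and 3 higher and 0 lower in CCR2hi, with Cd40 higher by 0.60 and 1.25 (adjusted p = 0.00908 and 0.000125) on TMM and on neither marker list.

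Between gates, 35 of the 73 genes were higher and 10 lower in CCR2low in Cre+/-, and 42 higher and 8 lower in WT. Of the 20 NF-kB target genes, 8 were higher and 6 lower in Cre+/-, and 14 higher and 3 lower in WT. Among all genes tested, 24.9% were higher and 29.1% lower in Cre+/-, and 29.8% and 30% in WT, so that the 30% of target genes lower in Cre+/- is near that share. On macrophage scaling 69 of the 73 were lower and 0 higher in each genotype, which is near the 91.4% lower in Cre+/- and 94.7% in WT among all genes. The interaction was called negative for 12 genes (16.4%) and positive for 3 (4.11%), beside 7.85% and 4.74% of all genes, and 8 of the 12 were NF-kB target genes. Without Cre+/- CCR2hi 2 or 3 the negative count was 6, and the positive count was 10 without Cre+/- CCR2low 3, 5 without Cre+/- CCR2hi 1 and 0 without WT CCR2low 2 or Cre+/- CCR2low 1 or 2. On macrophage scaling 12 were positive and 0 negative, near the 19.3% and 0.688% of all genes.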

How the data were processed

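RNA of 12 libraries, 3 in each of 4 groups, was sequenced, and per gene expected counts and TPM were deposited by the authors. Per the submitters' processing notes, reads were handled with CASAVA 1.8, STAR 2.4.0j and RSEM (no version named) on mm10, which gave the deposited expected counts (all whole numbers, so that none was rounded here) and the deposited TPM (transcripts per 1e+06). Groups and replicate numbers came from the sample titles. Columns named KD were matched to the Cre+/- titles by gate and number.

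Counts were tested in R 4.3.3 with edgeR 4.0.16 (quasi-likelihood test, robust, TMM scaling, 1 fit over the 4 groups with 8 residual degrees of freedom). The default filter on low counts left 14964 of 53801 genes, and 27248 had no count. P-values are two-sided and Benjamini-Hochberg adjusted over all genes tested, with calls at 0.05. The common biological coefficient of variation was 18.9%. Total counts of 17702018 to 20826688 set the counting precision. Library profiles correlated at 0.978 to 0.993 within groups and 0.804 to 0.963 between groups. The steps were tested on simulated data in which few genes differed, and in 1 group only. Many genes differ between the groups here, so that test does not cover the scaling of these libraries.

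Alternatives were library size scaling, scaling by 15 macrophage or 14 pan-leukocyte markers, DESeq2 1.42.0, no filter, a replicate block, limma 3.58.1 (trend) on log2(TPM + 1), each library left out in turn, and both Cre+/- libraries numbered 3 left out. Same-numbered Cre+/- libraries of the 2 gates deviated together (r = 0.295, 0.145 and 0.5) and met the threshold of 0.1 set for pairing, although the CCR2low library numbered 2 correlated better with another number (0.304). The fit reported is unpaired. A block by number within each genotype, WT included, changed no call of the 10 genes between the Cre+/- gates. Same-numbered WT libraries did not (r = −0.0782, 0.0493 and −0.0415).

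Positions are from GENCODE release 21 for mouse (GRCm38), in which 99.66% of gene identifiers matched. The 10 genes, the pathway lists and the marker lists were chosen with earlier results of these data known. Up to 3 pathway genes per list and genotype comparison, those called with the smallest p, could be named, plus Rela, and not all are described. Likeness was ranked among genes of at least 5 CPM in the mean, and the 3 most alike per gene were recorded.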

Additional observations from a re-analysis of the deposited data

Results flagged for a closer look

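The genotype difference was unlike in the 2 gates for 5 of the 10 genes, by the edgeR test of the interaction (CCR2low minus CCR2hi in Cre+/-, minus the same in WT). The value was −1.73 for Tnf, −0.996 for Tnfrsf1b, −0.95 for Nfkbia, −0.80 for Nfkbiz and −0.66 for Tnfrsf1a, with adjusted p = 0.00168, 0.00503, 0.00372, 0.0235 and 0.0216. Beside these, the 14 pan-leukocyte markers had a median interaction of −1.15, with 8 called negative, and the 15 macrophage markers one of −0.84, with 5 called negative, where 7.85% of all genes were. With either marker list set level none of the 5 genes was called, and their part in the result was not tested further.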

How the results depend on the processing

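Over 50 fold changes of the 10 genes and 20 alternatives, 822 values kept direction and call, 73 lost the call, 26 gained one and 79 turned in sign, of which 27 under macrophage and 26 under leukocyte scaling. Both scalings moved the median of all genes, as the text gives. With 1 library left out, scaling was set anew and that median moved by −0.012 to 0.19 for Cre+/- against WT in CCR2low. It moved by −0.064 to 0.00088 in CCR2hi and −0.012 to 0.23 for the interaction. Between gates it moved by −0.0076 to 0.18 in Cre+/- and −0.21 to 0.012 in WT. With no low-count filter it moved by 0.14 in CCR2low, −0.059 in CCR2hi and 0.20 for the interaction. Between the Cre+/- and WT gates it moved by 0.15 and −0.046. The part of these moves in the other changes was not tested. With library size scaling, counts that moved by over 1.5 times were 2 called lower between gates in Cre+/-. With library size scaling, values that turned in sign were Nfkb1 −0.089 between gates in Cre+/-, Nfkb2 −0.025 and Relb −0.091 for the interaction. With macrophage scaling, counts that moved by over 1.5 times were 1 called lower and 2276 genes called in all for Cre+/- against WT in CCR2low, 1 of the 10 called higher, 2 called lower and 8875 genes called in all for Cre+/- against WT in CCR2hi, 0 of the 10 called higher, 8 called lower and 13743 genes called in all between gates in Cre+/-, 0 of the 10 called higher, 9 called lower and 14289 genes called in all between gates in WT, 1 of the 10 called higher, 0 called lower and 2988 genes called in all for the interaction. With macrophage scaling, values that turned in sign were Rela 0.10 for Cre+/- against WT in CCR2low, Tnfrsf1a −0.76, Nfkb2 −0.16, Rel −0.40, Relb −0.51, Nfkbia −0.32, Tnfaip3 −0.65, Rela −0.73, Nfkbie −0.21, Bcl3 −0.38, Tbk1 −0.12 and N4bp1 −0.15 for Cre+/- against WT in CCR2hi, Tnf −0.50, Tnfrsf1b −1.09, Nfkb1 −1.97, Nfkb2 −1.65, Rel −1.25, Relb −1.79, Nfkbia −1.59 and Tnfaip3 −0.58 between gates in Cre+/-, Tnfrsf1a −2.75, Tnfrsf1b −1.29, Nfkb2 −2.94, Rel −2.94, Relb −2.97, Nfkbia −1.76, Nfkbiz −2.51 and Tnfaip3 −1.57 between gates in WT, Tnfrsf1a 0.45, Tnfrsf1b 0.19, Nfkbia 0.17, Nfkbiz 0.26 and Tnfaip3 0.99 for the interaction. With leukocyte scaling, counts that moved by over 1.5 times were 3 of the 10 called higher, 1 called lower and 3188 genes called in all for Cre+/- against WT in CCR2low, 1 of the 10 called higher, 5 called lower and 11751 genes called in all for Cre+/- against WT in CCR2hi, 0 of the 10 called higher, 6 called lower and 12155 genes called in all between gates in Cre+/-, 1 of the 10 called higher, 9 called lower and 13998 genes called in all between gates in WT, 4 of the 10 called higher, 0 called lower and 6378 genes called in all for the interaction. With leukocyte scaling, values that turned in sign were Tnfrsf1a −1.04, Nfkb1 −0.18, Nfkb2 −0.42, Rel −0.66, Relb −0.77, Nfkbia −0.59, Tnfaip3 −0.93, Rela −0.99, Nfkbie −0.48, Bcl3 −0.63, Ikbke −0.26, Tbk1 −0.39, Cflar −0.18, Ripk3 −0.029, N4bp1 −0.43, Rhbdf2 −0.094, Cd40 −0.016 and Tnfrsf11a −0.015 for Cre+/- against WT in CCR2hi, Tnfrsf1b −0.41, Nfkb1 −1.29, Nfkb2 −0.97, Rel −0.57, Relb −1.11 and Nfkbia −0.91 between gates in Cre+/-, Tnfrsf1a −2.14, Tnfrsf1b −0.67, Nfkb2 −2.32, Rel −2.31, Relb −2.35, Nfkbia −1.15, Nfkbiz −1.91 and Tnfaip3 −0.97 between gates in WT, Tnfrsf1a 0.52, Tnfrsf1b 0.26, Nfkbia 0.24, Nfkbiz 0.33 and Tnfaip3 1.07 for the interaction. With DESeq2, values that turned in sign were Tnfaip3 0.00043 for the interaction. With no low-count filter, counts that moved by over 1.5 times were 1 called lower for Cre+/- against WT in CCR2low, 1 of the 10 called higher and 3 called lower for the interaction. With no low-count filter, values that turned in sign were Rela 0.070 for Cre+/- against WT in CCR2low, Tnfaip3 0.11 for the interaction. With limma-trend on TPM, counts that moved by over 1.5 times were 2 called lower between gates in Cre+/-, 1181 genes called in all for the interaction. With limma-trend on TPM, values that turned in sign were Nfkb1 −0.10 between gates in Cre+/-, Nfkb2 −0.00095, Rel −0.024 and Relb −0.086 between gates in WT, Tnfaip3 0.056 for the interaction. With both Cre+/- libraries numbered 3 left out, values that turned in sign were Tnfaip3 0.050 for the interaction. With 1 library left out, the counts ran over 1 to 3 of the 10 called lower for Cre+/- against WT in CCR2low, 0 to 1 of the 10 called lower for Cre+/- against WT in CCR2hi, 0 to 1 of the 10 called higher for the interaction, 3 to 5 of the 10 called lower for the interaction, 873 to 2865 genes called in all for the interaction. Values that turned in sign with 1 library left out ran over Nfkb1 −0.23 to 0.028 between gates in WT, Nfkb1 −0.069 to 0.47 between gates in Cre+/-, Nfkbiz −0.23 to 0.024 between gates in Cre+/-, Nfkb1 −0.019 to 0.54 for the interaction, Nfkb2 −0.027 to 0.35 for the interaction, Relb −0.11 to 0.29 for the interaction, Tnfaip3 −0.22 to 0.27 for the interaction, Rela −0.11 to 0.12 for Cre+/- against WT in CCR2low. The replicate block changed 2 calls, both where numbers do not pair the libraries: Nfkb2 between gates in WT was called (0.36, adjusted p = 0.0275) and Nfkbia in CCR2low was not (−0.32, adjusted p = 0.0634). Genes with few counts, such as Lta and Tnfrsf13c, could not be tested at this depth.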
